A study of Mus musculus with 2 samples.

Results

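The 10 genes described here are Egr1, Egr2, Egr3, Nr4a1, Nr4a2, Nr4a3, Klf2, Klf4, Klf6 and Klf9, early-response transcription factor genes of the EGR, NR4A and Krüppel-like factor (KLF) families. They were chosen by symbol, 10 of the 32285 genes counted, and all 10 had molecules in both libraries. The cells were mononuclear cells of injured quadriceps muscle from wild-type C57 BL/6J mice, frozen and later thawed for droplet-based sequencing of transcript 3′ ends. The muscle had been injected with 100 µl of 1.2% w/v barium chloride, a salt that kills muscle fibres, and was taken 9 h or 2 h afterwards. There was 1 library per time, and uninjured muscle was not analysed here, so the times could not be set against replicates or against resting muscle, and no test was possible. The number of mice behind each library was not given in the sources used here.

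EGR proteins are zinc-finger factors whose genes are switched on within minutes of growth factor, cytokine or stress signals, before any new protein is needed, and they share the corepressors NAB1 and NAB2. NR4A proteins are orphan nuclear receptors of the same immediate early kind, induced in large part through cAMP response element binding protein, and they restrain inflammatory gene expression in macrophages. KLF proteins bind GC-rich and CACCC sequences: KLF2 and KLF4 keep endothelium quiescent and are kept high by laminar flow, KLF6 is an injury-responsive factor of endothelium and myeloid cells, and KLF9 is a direct target of the glucocorticoid receptor.

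The upstream regions of the NR4A genes and of Egr2 are shown because they hold several short elements of the kind that immediate early genes are known for. Windows of 300 bases (250 before to 50 after an annotated start) were available from RefSeq on GRCm38.p6 for 8 of the 10 members. The stretches below run from 10 bases before the first match to 10 after the last, 5′ to 3′ on the strand of the gene. Capitals mark the core of the cAMP response element (TGACG, either strand) and, in Egr2, also the CArG box, the binding sequence of serum response factor.
Nr4a1, chr15:101266603-101266820, plus strand: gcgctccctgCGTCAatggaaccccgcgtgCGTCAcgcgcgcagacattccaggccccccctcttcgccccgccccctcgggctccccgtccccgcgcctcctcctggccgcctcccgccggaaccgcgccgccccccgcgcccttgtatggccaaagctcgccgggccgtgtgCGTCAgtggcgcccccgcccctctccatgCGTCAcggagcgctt
Nr4a2, chr2:57124100-57124213, minus strand: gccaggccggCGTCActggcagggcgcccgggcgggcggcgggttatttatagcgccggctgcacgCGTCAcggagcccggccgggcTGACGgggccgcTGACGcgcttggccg
Nr4a3, chr4:48045064-48045172, plus strand: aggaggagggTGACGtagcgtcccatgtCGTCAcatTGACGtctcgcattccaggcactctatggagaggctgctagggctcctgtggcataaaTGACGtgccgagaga
Egr2, chr10:67537748-67537828, plus strand: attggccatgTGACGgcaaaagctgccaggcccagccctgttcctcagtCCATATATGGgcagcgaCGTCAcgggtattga

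Each of the 3 NR4A windows held 4 TGACG cores, a number reached or passed by 0.231% of the 32851 RefSeq promoter windows, while 20.8% of windows held at least 1. The Nr4a1 start site used lies inside the annotated span of the gene, the Egr2 stretch comes from 1 of 5 windows, of which 3 overlap and hold the printed CArG box while 1 other holds a different one, and the last Nr4a3 core lies just past the annotated gene start at 48045153. The Egr2 stretch holds 1 core on either side of a CArG box, and a CArG box was present in 1.63% of all windows. The EGR site GCGNGGGCG, searched on both strands, was found once each in the windows of Nr4a1, Nr4a2 and Klf2 and at 2 places in that of Klf4, against 5.55% of all windows with at least 1. Klf2, Klf4 and Klf9 had 1 TGACG core each. These matches describe the letters only, since binding was not measured.

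After filtering, 8147 cells at 9 h (35127600 unique molecules, UMIs, median 2327 per cell) and 4900 cells at 2 h (27598413 UMIs, median 4519 per cell) remained. The libraries shared 20 cell barcodes. Clusters were named from marker genes and are called like the cell type they match, since names rest on markers alone. Fibro-adipogenic progenitor-like (FAP-like) cells numbered 2378 at 9 h and 2025 at 2 h, neutrophil-like cells 4285 and 1634, endothelial-like cells 551 and 263, monocyte-like cells 357 and 172, dendritic-like cells 117 and 140, and cells like resident macrophages 236 and 314. All 15 FAP markers were above 0 in the FAP-like cells of both libraries, all 14 neutrophil markers in neutrophil-like cells and all 12 endothelial markers in endothelial-like cells. In resident macrophage-like cells their own markers summed to 16130 UMIs per 1000000 at 9 h and 13835 at 2 h. Dendritic markers summed higher there, to 21077 and 34768, so this class may be mixed. A level is given in CPM, the UMIs of a gene in the summed cells of a class scaled to 1000000. CPM of 3′ counts is not divided by transcript length, so levels are compared between cells and times, not between genes. FAP-like cells held 19601929 of all UMIs at 9 h and 16281155 at 2 h, and neutrophil-like cells 8231981 and 3508879. A class's share of a gene's molecules thus also reflects the size of the class. Intervals are exact 95% intervals for counting error only.

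Most of the 10 genes were lower at 9 h than at 2 h in the FAP-like cells, and fewer were called lower in each of the other 5 classes compared. A gene was called lower or higher when its log2 ratio of CPM + 10 reached 1 in size, that is 2-fold, with at least 100 UMIs over both libraries in the class. In FAP-like cells 6 of 10 members were called lower (Egr1, Egr3, Nr4a1, Nr4a3, Klf2 and Klf4) and 0 higher, where 9.29% of the 10493 genes measured were called lower and 7.35% higher. The members' median log2 ratio there was -1.13, beside 0.00 over all measured genes. All 15 FAP markers were detected in every FAP-like cluster, but the 3 clusters that held nearly all FAP-like cells at 9 h had none among their 10 leading genes, and FAP markers summed to 26574 CPM at 9 h and 67273 CPM at 2 h. Without such clusters 51 cells remained at 9 h and 2015 at 2 h, and 4 members stayed lower (Egr1 at -1.15, Klf4 at -1.04, Klf2 at -1.06 and Nr4a1 at -1.25), while Nr4a3 (-0.58) and Egr3 (-0.13) did not. Over all kept cells together 3 of 10 members were lower (Egr1, Klf4 and Klf9) and 0 higher, against 6.11% and 3.55% of 12066 genes.

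Endothelial-like cells had 4 of 9 measured members lower (Egr1, Nr4a2, Klf2 and Klf9) and 0 higher, against 8.16% and 8.08% of 3973 genes. In resident macrophage-like cells 2 of 9 were lower (Klf2 and Klf9) and 0 higher, against 7.67% and 4.36% of 4292 genes. Monocyte-like cells had 2 of 9 lower (Nr4a1 and Klf9) and 1 higher (Egr2), against 6.28% and 4.50% of 3887 genes. Neutrophil-like cells had 1 of 10 lower (Klf4) and 1 higher (Egr3), against 5.92% and 4.80% of 4918 genes. Dendritic-like cells had 0 of 8 lower and 1 higher (Nr4a3), against 5.44% and 5.78% of 2961 genes. The member shares in neutrophil-like and dendritic-like cells were thus near those of all measured genes or rested on 1 gene.

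**Figure D1:**
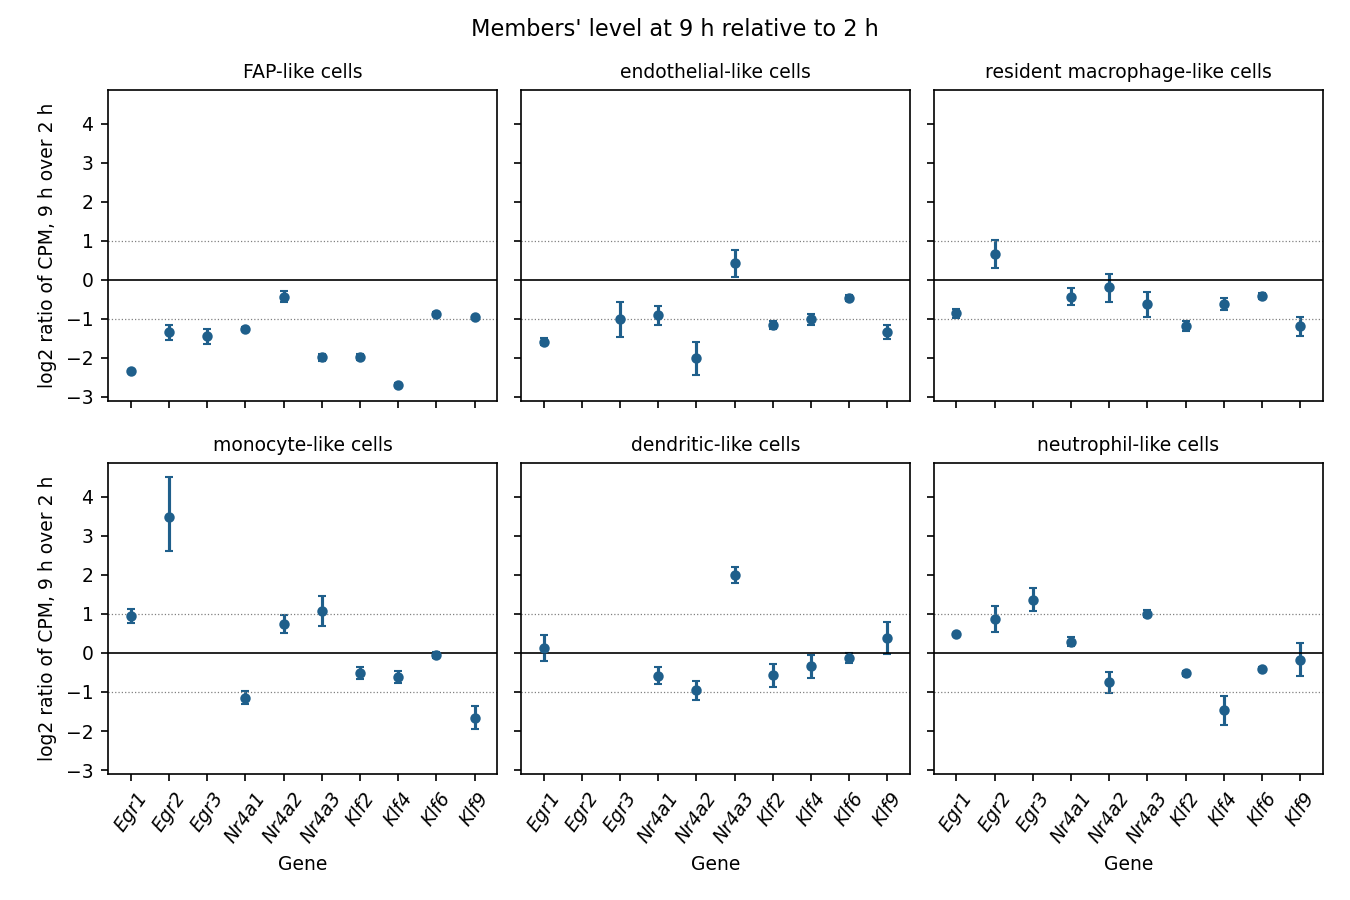
Ratio of each member's CPM at 9 h to that at 2 h (vertical axis, log2, no pseudocount) in 6 cell classes, for members with at least 100 UMIs over both libraries; bars are exact 95% intervals for counting error and dotted lines mark 2-fold. All 10 points of FAP-like cells lie below 0. Egr2 in monocyte-like, Nr4a3 in dendritic-like and Egr3 in neutrophil-like cells lie well above the upper dotted line. Nr4a3 in neutrophil-like and monocyte-like cells lies at or just above it, inside the limit once 10 CPM is added. Egr2 in FAP-like cells lies below the lower dotted line, and Egr3 and Klf4 in endothelial-like cells lie at it. These 3 are also inside the limit once 10 CPM is added.

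Egr1 (chr18:34859823-34864984, mm10, plus strand), the immediate early factor most often used as a readout of growth factor and stress signalling, was 615 CPM at 9 h and 3115 CPM at 2 h in FAP-like cells. This was 5.06-fold lower at 9 h (interval 4.96 to 5.17), which put the FAP-like level below that of neutrophil-like cells at 9 h. In neutrophil-like cells Egr1 was 1679 CPM at 9 h and 1210 CPM at 2 h, 1.39 times as high at 9 h and within the 2-fold limit. Endothelial-like cells had 1021 CPM at 9 h and 3060 CPM at 2 h, and resident macrophage-like cells 574 CPM at 9 h and 1039 CPM at 2 h.

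Egr1 was also higher at 9 h in monocyte-like cells, at 494 CPM against 257 CPM at 2 h, 1.93 times as high and within the limit on the CPM + 10 scale. Classes were ranked by level in a library where they had at least 50 cells in it. Satellite-like cells, the muscle stem cells, had the highest Egr1 level of the ranked classes, 3615 CPM in 69 cells at 9 h and 5911 CPM in 81 cells at 2 h. At 9 h the order below them was neutrophil-like, endothelial-like and FAP-like cells, and the intervals of FAP-like, resident macrophage-like, tenocyte-like (557 CPM) and monocyte-like cells overlapped each with the next. At 2 h FAP-like and endothelial-like cells came next after satellite-like cells, with overlapping intervals. Dendritic-like cells were the lowest of the ranked classes in both libraries, at 140 CPM at 9 h and 128 CPM at 2 h. The FAP-like cells held 38.8% of all Egr1 molecules at 9 h and 77.8% at 2 h.

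Egr2 (chr10:67535475-67542188, plus strand), best known from myelinating Schwann cells, macrophages and lymphocytes, had its largest difference among the 6 classes compared in monocyte-like cells. It was 90.8 CPM there at 9 h (187 UMIs) and 8.18 CPM at 2 h (11 UMIs), a ratio of 11.1 with an interval of 6.06 to 22.6. After each cell was thinned to 1000 UMIs, 8.50% of 353 monocyte-like cells at 9 h and 0.581% of 172 at 2 h had an Egr2 UMI; unthinned shares were 28.6% and 5.81%, at median depths of 5806 and 7945 UMIs. No single cell held more than 7 Egr2 UMIs at 9 h or 2 at 2 h.

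No other class where Egr2 could be compared reached the 2-fold limit, and the gene was too sparse in endothelial-like cells (31 UMIs at 9 h, 45 at 2 h) and dendritic-like cells (39 and 24 UMIs). Resident macrophage-like cells had 90.0 CPM of Egr2 at 9 h and 57.0 CPM at 2 h, and neutrophil-like cells 50.4 CPM at 9 h and 27.6 CPM at 2 h. FAP-like cells had 16.8 CPM at 9 h and 42.4 CPM at 2 h, a log2 ratio of -0.97 that stayed just inside the limit. At 9 h the Egr2 levels of satellite-like (121 CPM), monocyte-like and resident macrophage-like cells had overlapping intervals. At 2 h monocyte-like cells were the lowest of the 9 classes ranked, with an interval that overlapped that of tenocyte-like cells (11.9 CPM).

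Neutrophil markers were higher in the monocyte-like cells at 9 h than at 2 h (8447 CPM against 4093 CPM summed over 14 markers, 2 and 1 of them at 0). If all the S100a8 in monocyte-like cells had come from neutrophils with their Egr2 in the same ratio, it would bring 3.11 CPM of Egr2 at 9 h and 0.616 CPM at 2 h. The part of neutrophil RNA in the Egr2 difference was not tested. Resident macrophage markers summed to 1844 CPM at 9 h and 710 CPM at 2 h in the same cells (1 and 3 of 12 at 0), and their part in the Egr2 difference was not tested.

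Egr3 (chr14:70077203-70082614, plus strand), a target of EGR1 and of antigen-receptor signalling in lymphocytes, differed in opposite directions in FAP-like and neutrophil-like cells. FAP-like cells had 16.0 CPM at 9 h and 43.5 CPM at 2 h, 2.72-fold lower at 9 h (interval 2.38 to 3.12), a call that TMM scaling ended (log2 ratio -0.94). Neutrophil-like cells had 82.4 CPM at 9 h (678 UMIs) and 32.2 CPM at 2 h (113 UMIs), a ratio of 2.56 with an interval of 2.09 to 3.15. In monocyte-like cells Egr3 had 17 UMIs at 9 h and 0 UMIs at 2 h, where a count of 0 allows up to 2.23 CPM, and the gene was too sparse there to be compared. Endothelial-like cells had 48.2 CPM at 9 h and 97.0 CPM at 2 h, within the limit on the CPM + 10 scale. At 2 h satellite-like cells had the highest Egr3 level of the ranked classes (162 CPM), and at 9 h the neutrophil-like and satellite-like (71.9 CPM) intervals overlapped.

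**Figure D2:**
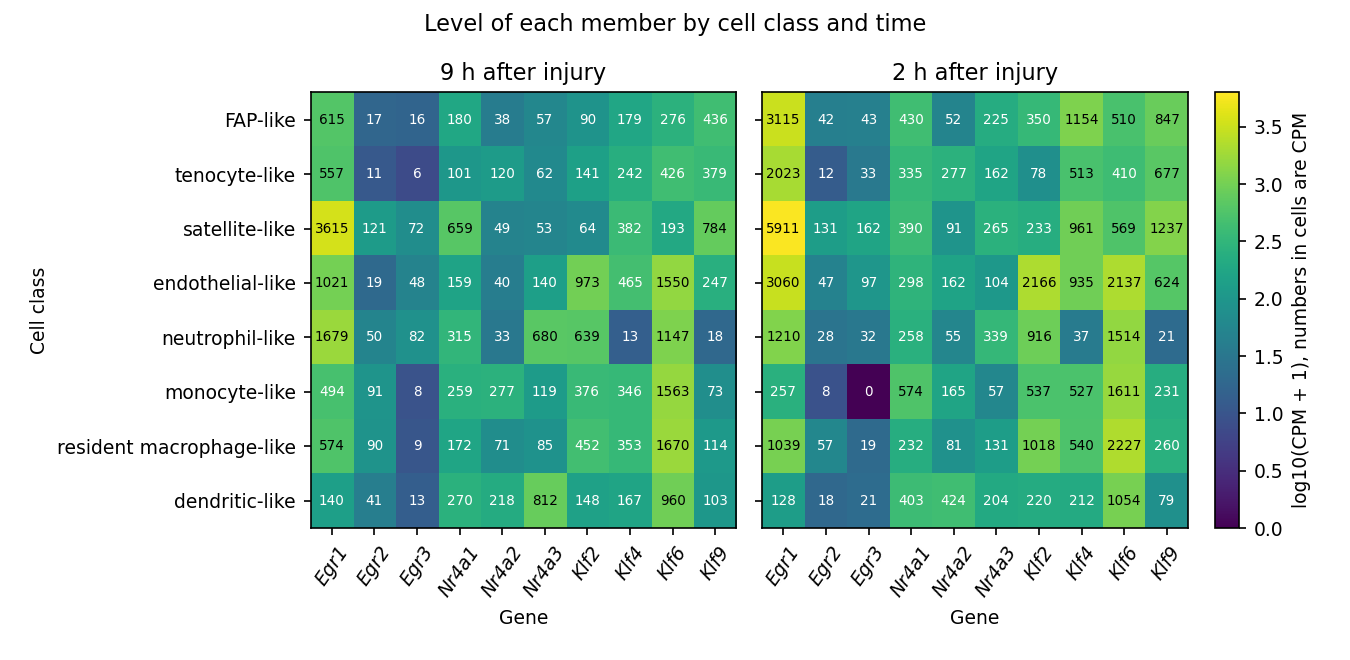
Level of each of the 10 genes (columns) in 8 cell classes (rows) at 9 h (left) and 2 h (right); colour is log10 of CPM + 1 and each number is the CPM. Egr1 in FAP-like cells is 615 at 9 h and 3115 at 2 h, while Klf9 in neutrophil-like cells is 18.2 at 9 h and 20.5 at 2 h.

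Nr4a1 (chr15:101254269-101274795, plus strand), which encodes NUR77, the receptor that marks recent antigen-receptor signalling in lymphocytes and shapes patrolling monocytes, was lower at 9 h in FAP-like and monocyte-like cells. FAP-like cells had 180 CPM at 9 h and 430 CPM at 2 h, 2.39-fold lower at 9 h (interval 2.29 to 2.49). Monocyte-like cells had 259 CPM at 9 h and 574 CPM at 2 h, 2.21-fold lower at 9 h (interval 1.98 to 2.48), so Nr4a1 and Egr2 differed in opposite directions in this class. The Nr4a1 call in monocyte-like cells was lost with TMM scaling (log2 ratio -0.91). Neutrophil-like cells differed little, with 315 CPM at 9 h and 258 CPM at 2 h. The T or NK-like cells, a small class of 37 cells at 9 h and 103 at 2 h, had the highest Nr4a1 level of the 9 classes ranked at 2 h, 983 CPM, and 867 CPM at 9 h. At clustering resolution 2 only 10 cells at 9 h and 74 at 2 h had this name. A cluster of 27 and 29 cells led by Calca and Gata3 had none, so the makeup of the class may differ between the times. Satellite-like cells led the ranked classes at 9 h, at 659 CPM, and had 390 CPM at 2 h.

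Nr4a2 (chr2:57106830-57124003, minus strand), which encodes NURR1, known for its role in dopamine neurons and also induced in macrophages, was called different in endothelial-like cells alone among the 6 classes compared. It was 40.3 CPM there at 9 h (66 UMIs) and 162 CPM at 2 h (155 UMIs), 4.01-fold lower at 9 h with an interval of 2.99 to 5.44. FAP-like cells had 38.3 CPM at 9 h and 51.7 CPM at 2 h, the smallest difference of the 10 members in that class. In dendritic-like cells the log2 ratio was -0.93, inside the limit, and passed it in 2 of the 9 alternatives run there. At 9 h monocyte-like cells had the highest level of the ranked classes, 277 CPM against 165 CPM at 2 h, followed by dendritic-like cells with 218 CPM at 9 h and 424 CPM at 2 h. The order of these leukocyte classes was thus reversed between the libraries, with intervals that did not overlap in either.

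Nr4a3 (chr4:48045153-48086447, plus strand), which encodes NOR1, a factor required for the migration of dendritic cells in mice, stood out in dendritic-like cells. It was 812 CPM there at 9 h (779 UMIs) and 204 CPM at 2 h (270 UMIs), a ratio of 3.99 with an interval of 3.47 to 4.60. This was the highest level of any ranked class at 9 h. After thinning, 44.2% of 113 dendritic-like cells at 9 h and 17.4% of 138 at 2 h had an Nr4a3 UMI, and unthinned the shares were 80.3% and 58.6% at median depths of 7586 and 8903 UMIs. The highest single cell held 37 Nr4a3 UMIs at 9 h and 13 at 2 h.

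The dendritic-like class held more Ccr7-positive cells at 9 h. Ccr7, the receptor that guides mature dendritic cells to lymph nodes, had a UMI in 68 of the 117 cells at 9 h and in 13 of the 140 cells at 2 h, a split chosen after the values had been seen. In cells with a Ccr7 UMI, Nr4a3 was 1295 CPM at 9 h and 362 CPM at 2 h. In cells without one it was 256 CPM at 9 h (interval 211 to 307) and 188 CPM at 2 h (interval 164 to 214), with intervals that overlap slightly. FAP markers in the class summed to 2010 CPM at 9 h and 523 CPM at 2 h (0 of 15 at 0 in both) and neutrophil markers to 4100 and 1416 CPM (2 and 1 of 14 at 0). With Dcn and S100a8 as the measure, RNA of those cell types could bring 4.63 CPM and 23.9 CPM of the 812 CPM of Nr4a3 at 9 h.

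In FAP-like cells Nr4a3 differed the other way, with 56.9 CPM at 9 h and 225 CPM at 2 h, 3.96-fold lower at 9 h (interval 3.70 to 4.23). Neutrophil-like cells had 680 CPM at 9 h and 339 CPM at 2 h, a ratio of 2.01 that gave a log2 ratio of 0.98 on the CPM + 10 scale, just inside the limit. With more of these cells in the library, neutrophil-like cells held 68.2% of all Nr4a3 molecules at 9 h and 19.5% at 2 h. FAP-like cells held 13.6% and 60.0%. The 60.0% was close to the FAP-like share of all UMIs at 2 h (16281155 of 27598413). In endothelial-like cells Nr4a3 was 140 CPM at 9 h and 104 CPM at 2 h, a log2 ratio of 0.39 that turned to -0.33 without the cells of highest doublet score. Neutrophil RNA, taken by S100a8, could bring 88.9 CPM of it at 9 h and 14.8 CPM at 2 h.

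**Figure D3:**
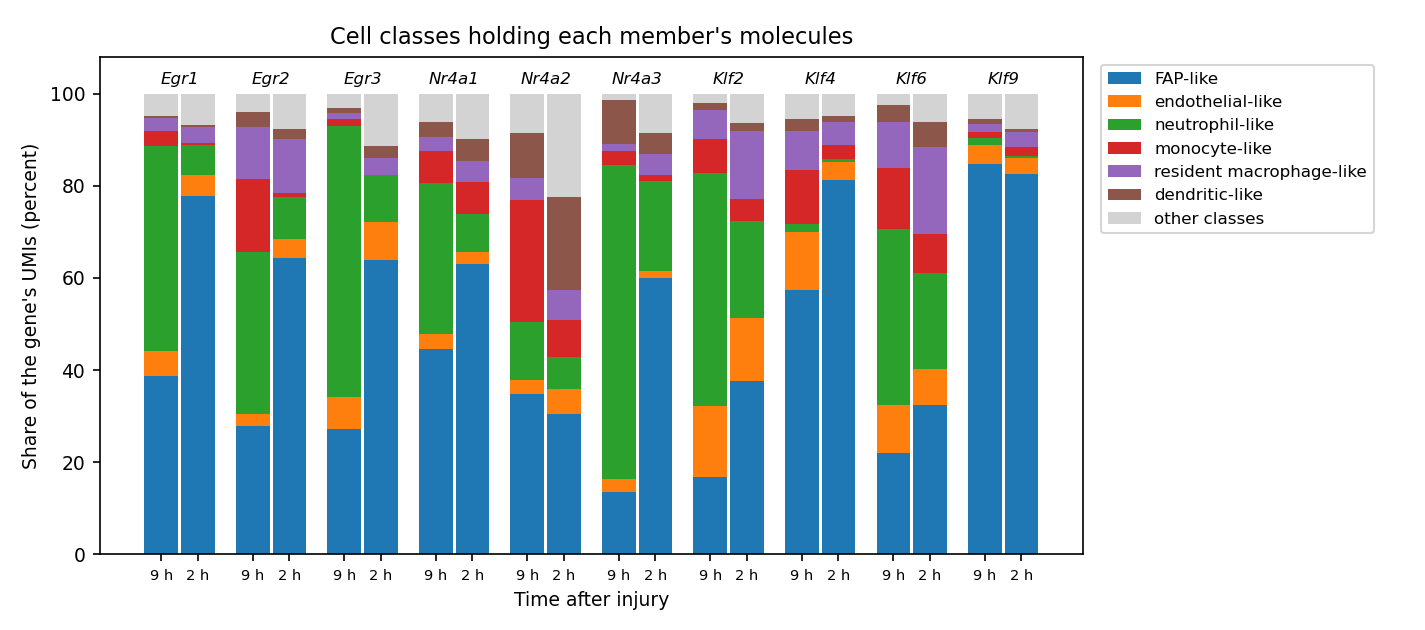
Share of each gene's UMIs (vertical axis, percent) found in each cell class, with the 9 h bar left of the 2 h bar for every gene. FAP-like cells hold 38.8% of Egr1 UMIs at 9 h and 77.8% at 2 h, and neutrophil-like cells hold 68.2% of Nr4a3 UMIs at 9 h and 19.5% at 2 h.

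Klf2 (chr8:72319033-72321656, plus strand), the flow-responsive factor of endothelium that also maintains naive lymphocytes, had its highest level in endothelial-like cells at both times among the ranked classes. The level was 973 CPM at 9 h and 2166 CPM at 2 h, 2.23-fold lower at 9 h (interval 2.09 to 2.38), though at clustering resolution 2 its log2 ratio was -0.95 there and -0.98 in resident macrophage-like cells, short of the limit. Resident macrophage-like cells had 452 CPM at 9 h and 1018 CPM at 2 h, 2.25-fold lower (interval 2.06 to 2.46). FAP-like cells had 89.7 CPM at 9 h and 350 CPM at 2 h, 3.90-fold lower (interval 3.70 to 4.12). Klf2 was thus called lower in these 3 of the 6 classes compared, and in neutrophil-like (639 CPM at 9 h, 916 CPM at 2 h), monocyte-like (376 and 537 CPM) and dendritic-like cells (148 and 220 CPM) it was lower by less than 2-fold.

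Klf4 (chr4:55527143-55532466, minus strand), a regulator of skin barrier, endothelium and monocyte differentiation and one of the factors used to reprogram fibroblasts, had the largest difference of the 10 in FAP-like cells. It was 179 CPM there at 9 h and 1154 CPM at 2 h, 6.44-fold lower at 9 h (interval 6.21 to 6.67). The share of FAP-like cells with a Klf4 UMI was 13.7% at 9 h and 50.5% at 2 h after thinning, and 47.4% and 85.7% unthinned, at similar median depths of 8225 and 7954 UMIs. FAP-like cells had the highest Klf4 level of the ranked classes at 2 h and the sixth highest of 8 at 9 h, when endothelial-like cells led with 465 CPM (935 CPM at 2 h).

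Monocyte-like cells had 346 CPM of Klf4 at 9 h and 527 CPM at 2 h and resident macrophage-like cells 353 and 540 CPM. Neutrophil-like cells served as the background for this gene. They had 13.4 CPM at 9 h and 37.0 CPM at 2 h, and a UMI in 1.21% and 3.25% of thinned cells. This called difference rests on 110 and 130 UMIs. FAP RNA alone, taken by Dcn, could bring 1.46 CPM at 9 h and 9.40 CPM at 2 h, and the call was lost under 3 of the alternatives tried.

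Klf6 (chr13:5861482-5870394, plus strand) was the most even member, called in none of the 6 classes. Resident macrophage-like cells had 1670 CPM at 9 h and 2227 CPM at 2 h, the highest of the ranked classes at both times, though their intervals overlapped with those of monocyte-like cells at 9 h (1563 CPM) and of endothelial-like cells at 2 h (2137 CPM). FAP-like cells had 276 CPM at 9 h and 510 CPM at 2 h, 1.84-fold lower. Monocyte-like cells hardly differed, with 1563 CPM at 9 h and 1611 CPM at 2 h and a ratio of 0.971 (interval 0.919 to 1.03).

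Klf9 (chr19:23141226-23168134, plus strand) was highest in satellite-like and FAP-like cells among the ranked classes at both times and was lower at 9 h in 3 of the 6 classes compared. Monocyte-like cells had 73.3 CPM at 9 h and 231 CPM at 2 h, 3.15-fold lower at 9 h (interval 2.59 to 3.86). Endothelial-like cells had 247 CPM at 9 h and 624 CPM at 2 h, 2.52-fold lower, and resident macrophage-like cells 114 and 260 CPM, 2.29-fold lower. In FAP-like cells it was 436 CPM at 9 h and 847 CPM at 2 h, 1.94-fold lower and just inside the limit. These cells held 84.8% of all Klf9 molecules at 9 h and 82.5% at 2 h, shares that differed less than those of the other 9 members. Satellite-like cells had the highest level of the ranked classes, 784 CPM at 9 h and 1237 CPM at 2 h. Neutrophil-like cells, with 18.2 CPM at 9 h and 20.5 CPM at 2 h, were the lowest of them in both libraries.

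The FAP-like cells of the times fell into different clusters, so the member levels were read in each. At 9 h they were in cluster 0 (1515 cells, led by Cxcl5 and Ccl2), cluster 9 (598 cells, led by Saa1 and Saa2) and cluster 13 (214 cells, led by Krtdap and Dmkn). At 2 h they were in cluster 1 (1429 cells, led by Col15a1) and cluster 8 (586 cells, with Pi16 and Dpp4 among its leading genes). Egr1 was 423 CPM in cluster 0, 1136 CPM in cluster 9 and 515 CPM in cluster 13 at 9 h, against 3511 CPM in cluster 1 and 2208 CPM in cluster 8 at 2 h. All 3 values at 9 h were thus below both at 2 h, and the same held for every other member except Nr4a2. For Egr2 and Egr3 the intervals of cluster 9 at 9 h and cluster 8 at 2 h overlapped.

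Nr4a2 levels of the times crossed. They were 42.2 CPM in cluster 0, 32.5 CPM in cluster 9 and 26.5 CPM in cluster 13 at 9 h. At 2 h they were 61.3 CPM in cluster 1 and 29.5 CPM in cluster 8. Klf9 was 656 CPM in cluster 9, 374 CPM in cluster 13 and 358 CPM in cluster 0 at 9 h, against 898 CPM in cluster 1 and 734 CPM in cluster 8 at 2 h. The 36 cells at 9 h that clustered with the main 2 h cluster had 967 CPM of Klf9, beside 898 CPM in the 1429 cells at 2 h (ratio 1.08, interval 0.912 to 1.26). In the same 36 cells Egr1 was 1610 CPM at 9 h against 3511 CPM at 2 h (ratio 0.458), and Klf4 407 CPM against 1208 CPM (ratio 0.337). The clustering used the expression of these genes and of others that differ between times, so cluster levels are a description.

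**Figure D4:**
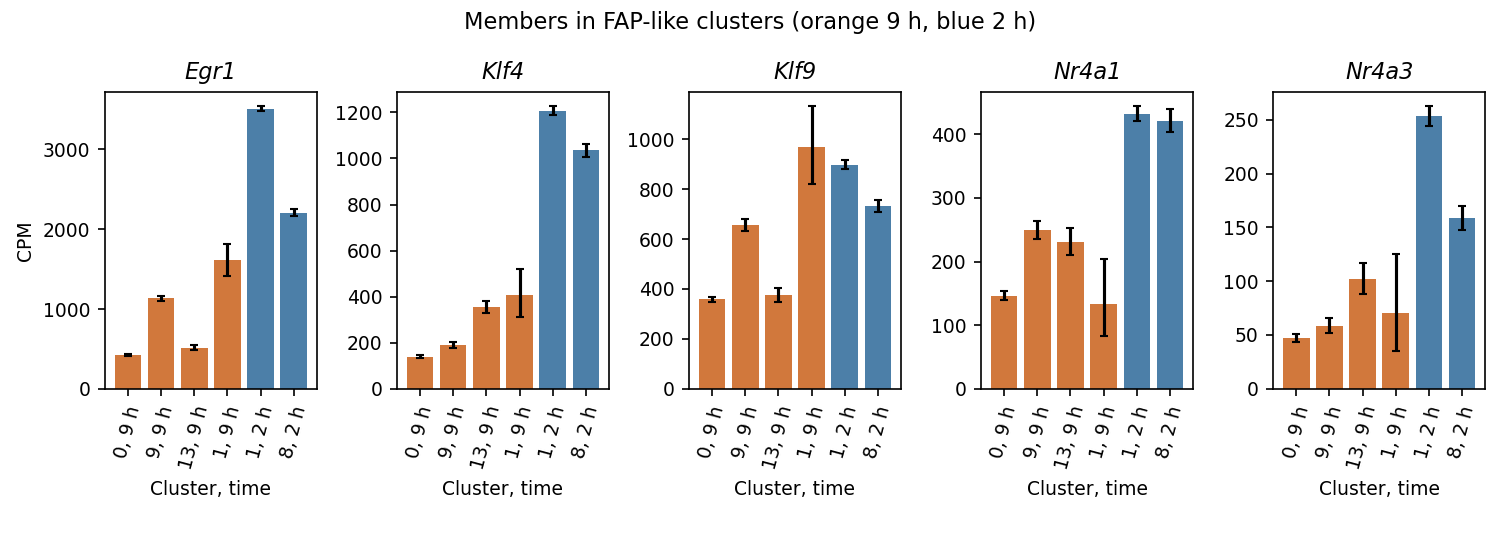
CPM of 5 members in the FAP-like clusters with at least 30 cells of 1 library, 9 h in orange and 2 h in blue; bars are exact 95% intervals for counting error. The 9 h bars of Egr1, Klf4, Nr4a1 and Nr4a3 lie below the 2 h bars, while Klf9 in the 36 cells of cluster 1 at 9 h (967 CPM) is level with the 2 h cells of that cluster (898 CPM).

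Neutrophil-like cells also divided by time. Egr3 and Nr4a3 were highest in cluster 2 (1353 cells at 9 h, led by Ccrl2 and Ccl3), with 106 CPM of Egr3 and 848 CPM of Nr4a3. Cluster 4 held cells of both times, 405 at 9 h and 725 at 2 h. Within it Egr3 was 42.9 CPM at 9 h and 42.1 CPM at 2 h (ratio 1.02, interval 0.602 to 1.68), and Nr4a3 452 CPM at 9 h and 421 CPM at 2 h (ratio 1.07, interval 0.921 to 1.25). Neither gene thus differed by 2-fold between the times within this cluster, while Nr4a1 there was 179 CPM at 9 h and 314 CPM at 2 h (ratio 0.569).

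Single FAP-like cells carried fewer of the members at 9 h. After thinning to 1000 UMIs, 24.2% of 2326 FAP-like cells at 9 h and 2.60% of 2001 at 2 h had no UMI of any of the 10 genes, and 4.82% at 9 h and 31.9% at 2 h had UMIs of at least 4. In endothelial-like cells 21.7% of 507 at 9 h and 48.4% of 244 at 2 h had at least 4 of the genes. In neutrophil-like cells the shares were 17.3% of 3961 at 9 h and 12.6% of 1537 at 2 h, the other direction. Some NR4A genes met in the same FAP-like cell more often than their single shares give, while pairs across families are not described here. Nr4a1 and Nr4a3 were found together in 1.85% of thinned FAP-like cells at 9 h, where the product of their shares was 0.729%, and Nr4a2 and Nr4a3 in 1.80% at 2 h, where it was 0.705%.

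**Figure D5:**
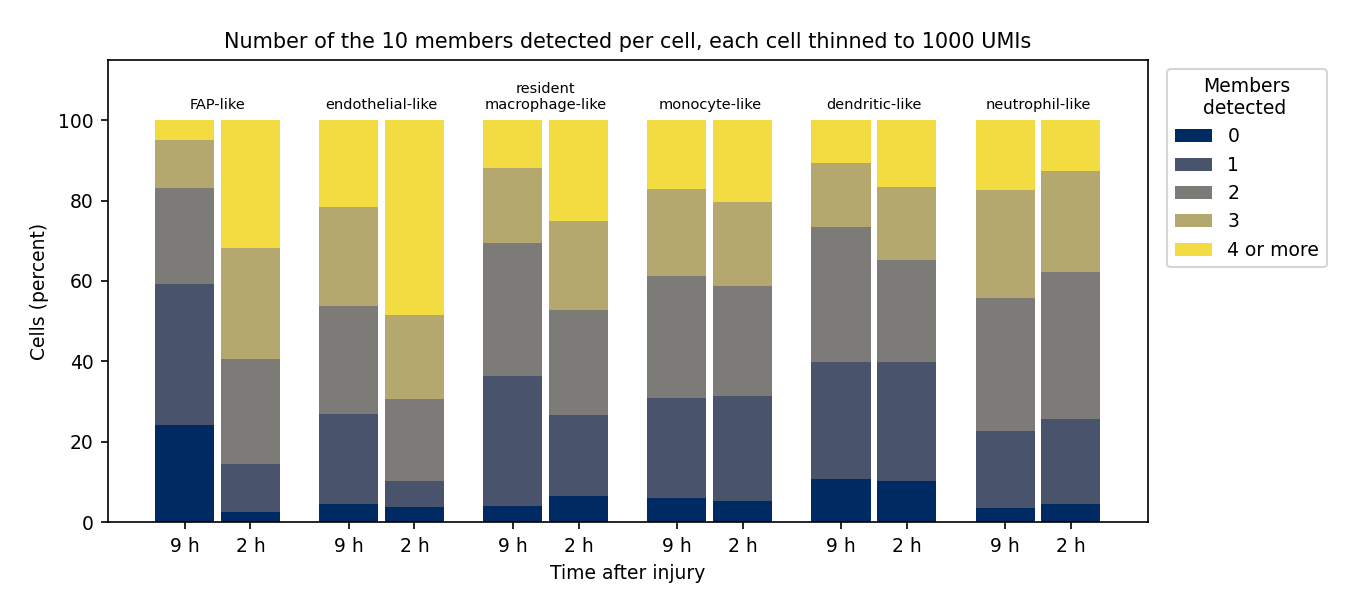
Percent of cells (vertical axis) by the number of the 10 genes detected, in 6 cell classes at 9 h (left bar) and 2 h (right bar), each cell thinned to 1000 UMIs. In FAP-like cells the share with none is 24.2% at 9 h and 2.60% at 2 h, and the share with 4 or more is 4.82% at 9 h and 31.9% at 2 h.

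Other immediate early genes followed in part. Of 34 such genes measured in FAP-like cells, 11 were called lower at 9 h and 3 higher, against 9.29% and 7.35% of all measured genes. Fos, the AP-1 subunit, was 280 CPM at 9 h and 1622 CPM at 2 h, and Atf3, a stress-induced repressor, 53.8 CPM at 9 h and 537 CPM at 2 h. Ccn2, a matricellular growth factor, was the largest in the other direction, at 2098 CPM at 9 h and 531 CPM at 2 h. The list was not uniform, and in neutrophil-like cells it had 1 gene lower (Fos, 711 CPM at 9 h and 1867 CPM at 2 h) and 3 higher of 31, led by Ier3 and Gadd45b. All measured genes of that class were called lower in 5.92% and higher in 4.80%.

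Heat shock genes were lower at 9 h in FAP-like, endothelial-like and resident macrophage-like cells. In FAP-like cells 7 of 10 heat shock genes were called lower, with Hspa1b at 1682 CPM at 9 h and 4877 CPM at 2 h and Dnajb1 at 101 and 695 CPM. In endothelial-like cells 7 of 10 were lower and in resident macrophage-like cells 6 of 10, against 1 of 9 in neutrophil-like, 1 of 10 in monocyte-like and 0 of 10 in dendritic-like cells. Of all measured genes, 9.29% were lower in FAP-like, 8.16% in endothelial-like and 7.67% in resident macrophage-like cells. The shares were 5.92% in neutrophil-like, 6.28% in monocyte-like and 5.44% in dendritic-like cells. Median mitochondrial shares of the FAP-like cells were 2.91% at 9 h and 3.91% at 2 h. The part of heat shock or of mitochondrial share in the members' differences was not tested.

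In endothelial-like cells, markers of other cells were higher at 9 h. Neutrophil markers summed to 15282 CPM at 9 h and 6525 CPM at 2 h (0 and 1 of 14 at 0), FAP markers to 4972 and 3352 CPM, and red cell markers to 1883 and 1359 CPM. Endothelial markers summed to 8176 CPM at 9 h and 8991 CPM at 2 h. The part of RNA from other cells in the lower Egr1, Klf2, Nr4a2 and Klf9 of this class was not tested, while neutrophil RNA taken by S100a8 could bring 219 of the 1021 CPM of Egr1 at 9 h.

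Genes linked to the 3 families did not all differ with them. Of 15 EGR target genes measured in FAP-like cells, 1 was lower at 9 h (Fn1) and 3 were higher, against 9.29% and 7.35% of all measured genes. Tnfrsf12a, the TWEAK receptor, was 387 CPM at 9 h and 169 CPM at 2 h. Nab2, the EGR corepressor that EGR1 itself induces, was 35.3 CPM at 9 h and 13.3 CPM at 2 h, within the limit, and Nab1 62.2 and 60.5 CPM. In neutrophil-like cells 6 of 12 EGR targets were higher and 0 lower, against 4.80% and 5.92% of all measured genes. Tgfb1 was 302 CPM at 9 h and 42.5 CPM at 2 h there, and Tnf 496 and 154 CPM. Serum response factor and its partners had 0 of 7 called in FAP-like cells, where Srf was 21.1 CPM at 9 h and 18.2 CPM at 2 h.

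Among 11 other Krüppel-like factors and relatives measured in FAP-like cells, 4 were lower at 9 h (Klf3, Klf13, Klf12 and Klf7) and 0 higher, against 9.29% and 7.35% of all measured genes. Klf3 was 42.3 CPM at 9 h and 139 CPM at 2 h. Klf3 was also lower in neutrophil-like cells, at 120 CPM at 9 h and 495 CPM at 2 h. Of 11 endothelial targets of KLF2 and KLF4 measured in endothelial-like cells, 1 was called lower, Tek, the angiopoietin receptor, at 44.0 CPM at 9 h and 214 CPM at 2 h. This count was near the share of all measured genes called lower there, 8.16%. Nos3, the endothelial nitric oxide synthase, was 220 CPM at 9 h and 241 CPM at 2 h, and Thbd, thrombomodulin, 536 and 885 CPM, both within the limit. Cav1 (896 and 1777 CPM), Cdkn1a (1031 and 1866 CPM) and Timp3 (1421 and 2493 CPM) were lower and nearer to the limit. Cdh5 hardly differed (1819 and 1806 CPM). The median log2 ratio of these targets was -0.63, beside 0.05 over all measured genes of the class. Of 11 NR4A partners and targets in FAP-like cells, 1 was called, Sod2, a mitochondrial superoxide dismutase, higher at 877 CPM at 9 h against 217 CPM at 2 h. That count was near the 7.35% of all measured genes called higher there.

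Glucocorticoid-induced genes, of which Klf9 is one, were read in the class where Klf9 differed most. In monocyte-like cells 4 of 10 were lower at 9 h, with Fkbp5, a chaperone of the glucocorticoid receptor, at 41.3 CPM at 9 h and 173 CPM at 2 h and Tsc22d3, which encodes GILZ, at 63.6 and 223 CPM. Per1 and Mt2 were the others, and Nfkbia, the inhibitor of NF-κB, was higher at 3114 CPM at 9 h against 1316 CPM at 2 h. All measured genes of the class were called lower in 6.28% and higher in 4.50%. In FAP-like cells 3 of 14 of these genes were lower and 1 higher, against 9.29% and 7.35% of all measured genes. Fkbp5 (55.9 CPM at 9 h, 104 CPM at 2 h) and Tsc22d3 (124 and 236 CPM) were within the limit there. Klf9 was also called lower in endothelial-like and resident macrophage-like cells. In endothelial-like cells 1 of 12 of the listed genes was lower and 3 higher, against 8.16% and 8.08% of all measured genes. In resident macrophage-like cells 1 of 11 was lower and 1 higher, against 7.67% and 4.36%. Both lower counts were near the shares of all measured genes.

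The genes whose pattern over the 17 groups of class and time was most like that of each member were found by Pearson correlation of log2 (CPM + 10), as a description over groups that share 2 libraries. They were Fbxo30 (r = 0.91), Rab6a and Ddx17 for Egr1, Jun (0.71), Top1 and Slc7a8 for Egr2, and Mfap1a (0.87), Ddx17 and Mfsd4a for Egr3. For the NR4A genes they were Luc7l2 (0.82), Hectd3 and Ift46 for Nr4a1, Selenoh (0.81), Parp8 and Bex3 for Nr4a2, and Mmp25 (0.85), Rhof and Nmrk1 for Nr4a3. For the KLF genes they were Arhgef3 (0.94), Vamp3 and Pde2a for Klf2, Lmna (0.92), Dync1h1 and Trak1 for Klf4, Sgms1 (0.93), Tspan14 and Hpcal1 for Klf6, and Mbtps1 (0.96), Tmem260 and Hipk3 for Klf9. Among the members themselves, Klf2 and Klf6 (0.87), Klf4 and Klf9 (0.81) and Egr1 and Egr3 (0.80) were the pairs most alike.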

How the data were processed

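Deposited counts are whole UMIs for each gene in each barcode. The submitters' processing notes name Cell Ranger 5.0.0 and mm10 for how the authors made them. Annotation release and counting settings: not given in the sources used here. Cells with under 200 genes, under 500 UMIs or over 20% mitochondrial UMIs were removed, which left 8147 of 8790 barcodes at 9 h and 4900 of 5729 at 2 h. Doublet calls (0 at 9 h and 6 at 2 h, 0.122%) were too few to be used, so all kept cells stayed in.

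The libraries were clustered together (2000 variable genes, 30 components, 15 neighbours, Leiden resolution 1, seed 0) with Scanpy 1.11.5 in Python 3.11.15, and named from lists of markers, by the best-scoring class, if at least 3 of its markers were found in 10% of the cells of a cluster and its score was 1.2 times the next. UMIs were summed per class and library and scaled to 1000000 (CPM). No test across samples was possible. Intervals are exact Poisson (levels), binomial (shares) or conditional binomial (ratios), cover counting error only and treat each UMI as independent. The ratio step was run on simulated Poisson counts. These hold only the counting error that the intervals assume, so spread between cells, animals or libraries was not covered. As an alternative only, edgeR 4.0.16 (R 4.3.3) gave TMM scaling. Gene positions are from the GENCODE annotation of mm10. RNA brought in from another cell type was bounded with Dcn (FAP-like) and S100a8 (neutrophil-like).

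All 10 members were described where a class had 100 or more cells at both times, with up to 4 genes per direction from 9 linked lists and the 3 genes most like each member. Members and lists were chosen with earlier results of these data known. Antisense and overlapping transcripts were not separated beyond the authors' counting.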

Additional observations from a re-analysis of the deposited data

Results flagged for a closer look

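A pair of genes went opposite ways in different cell classes. The log2 ratio (9 h over 2 h, CPM + 10) of Egr3 was 1.13 in neutrophil-like cells and -1.04 in FAP-like cells. The log2 ratio of Nr4a3 was 1.94 in dendritic-like cells and -1.81 in FAP-like cells. With 1 library per time these differences between classes were not tested.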

How the results depend on the processing

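Counts in FAP-like, endothelial-like and resident macrophage-like cells moved by at most 1.5 times, and no called ratio changed sign under the alternatives run. The members behind a count could differ. Nr4a3 in resident macrophage-like cells (84.6 CPM at 9 h, 131 CPM at 2 h) had a log2 ratio of -0.58. It ranged from -1.33 to -0.22 and passed the limit in 2 of 9 alternatives. In endothelial-like cells Nr4a1 and Klf4, both uncalled, each passed it in 3 of 10. Some uncalled log2 ratios turned. Without the cells of highest doublet score Nr4a3 in endothelial-like cells was -0.33 (0.39 with them), and in dendritic-like cells Egr1 was -0.45 (0.12) and Klf9 -0.42 (0.34). Egr1 there was also -0.05 without the 5 cells with most of its UMIs. Nr4a2 in resident macrophage-like cells was 0.23 at clustering resolution 2 (-0.17 at resolution 1), and Klf6 in monocyte-like cells 0.17 with TMM scaling (-0.04 without). The 6 members lower in FAP-like cells were 5 with TMM scaling (Egr3 at -0.94), 7 with a pseudocount of 1 CPM, 7 without the cells of highest doublet score, and 6 when members, immediate early and heat shock genes were kept out of the clustering. Leaving out FAP-like clusters with no FAP marker among their leading genes left 51 cells at 9 h and a count of 4, where Egr1 was at -1.15 and Klf4 at -1.04. Leaving out the clusters led by Saa1 or Krtdap, chosen after seeing the data, gave 7, and leaving out cells with shared barcodes, also chosen then, gave 6. With TMM scaling, neutrophil-like cells had 0 lower and 2 higher, monocyte-like cells 1 lower and 3 higher, and dendritic-like cells 1 lower. With a pseudocount of 1 CPM, neutrophil-like and monocyte-like cells each had 2 higher. Monocyte-like cells also had 2 higher with at most 10% mitochondrial UMIs and without the cells of highest doublet score. Neutrophil-like cells had 0 lower at clustering resolution 2. Without the 5 cells with the most UMIs of each member, neutrophil-like cells had 0 lower and 2 higher, monocyte-like cells 3 higher and dendritic-like cells 1 lower. The cause of these moves was not tested. TMM scaling moved the median log2 ratio of all genes by 0.14 in FAP-like, 0.15 in neutrophil-like, 0.22 in monocyte-like and -0.11 in dendritic-like cells. At resolution 0.5 the resident macrophage-like and dendritic-like cells got no name and gave no value. No paired analysis was possible because each time had 1 library. Precision is limited by counts for Egr2, Egr3 and Nr4a2, and for no gene do the intervals cover animals.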

Other observations

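Tenocyte-like cells, 62 at 9 h and 80 at 2 h, were too few for the comparison. They had 557 CPM of Egr1 at 9 h and 2023 CPM at 2 h, 101 and 335 CPM of Nr4a1, and 242 and 513 CPM of Klf4. Klf2 was 141 CPM at 9 h and 77.8 CPM at 2 h there, on 66 and 59 UMIs. Satellite-like cells, 69 at 9 h and 81 at 2 h, had 659 and 390 CPM of Nr4a1, 53.0 and 265 CPM of Nr4a3, and 193 and 569 CPM of Klf6, so the NR4A genes Nr4a1 and Nr4a3 differed in direction in these cells. Pericyte or smooth muscle-like cells, 33 at 9 h and 32 at 2 h, had 114 CPM of Klf2 at 9 h and 642 CPM at 2 h, on 21 and 145 UMIs.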
